A study of Mus musculus with 8 samples.

Results

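The genes described here are 10 members of platelet-derived growth factor (PDGF) signaling and of the mural cells of blood vessels, measured in mouse mammary tumors treated topically with calcipotriol or with its solvent. They were chosen by symbol, as the rows of the gene table whose Ensembl identifier maps to Pdgfa, Pdgfb, Pdgfc, Pdgfd, Pdgfra, Pdgfrb, Cspg4, Rgs5, Acta2 or Abcc9, and all 10 were found among the 55414 genes listed. The group holds 4 ligands, 2 receptors and 4 genes used as markers of mural cells. All 10 had enough counts to be tested.

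PDGF ligands are secreted dimers that bind receptor tyrosine kinases on mesenchymal cells. Endothelial cells of growing vessels release PDGF-B, which attracts pericytes that carry the receptor PDGFRβ, so that a mural coat forms on the new vessel. In mammary tumors both receptors are also found on fibroblasts, and PDGF-A and PDGF-C act mainly through the receptor PDGFRα.

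The tumors were grown orthotopically in WT C57BL/6 female mice, 6 to 8 weeks old, from a PyMt cell line. The line was derived from the MMTV-PyMt mouse, in which the MMTV promoter drives the polyomavirus middle T antigen in mammary epithelium. Calcipotriol, a vitamin D analog, was applied over the tumor site at 20 nmol every 2 days from day 2 after implantation, and the control mice received the solvent, ethanol (EtOH), alone. Tumors were taken at 24 hours past the final application, with 4 EtOH-treated tumors (replicates 1, 2, 3 and 4) and 4 calcipotriol-treated tumors (replicates 1, 5, 6 and 7), each sequenced as 1 bulk RNA library. Both groups carried tumor cells of this 1 line, while vessels and immune cells came from the hosts.

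Library totals were 19685419 to 25084713 counts, and 3 counts in a library correspond to 0.119 to 0.146 CPM (counts scaled to a common library total, with library sizes scaled by TMM, a factor that centers most genes between tumors), a floor that covers counting error only. The labels give the cell type as epithelial. Krt8, a keratin of luminal epithelium, had a mean of 593 CPM with EtOH and 369 CPM with calcipotriol. Epcam, a surface marker of most epithelia, had means of 1.79 and 11.1 CPM. It varied within both groups, from 0 to 4.29 CPM with EtOH (0 counts in replicates 1 and 2) and from 1.19 to 22.7 CPM with calcipotriol. Markers of fibroblasts, macrophages and endothelium were also present, so the libraries hold more than epithelial cells. EtOH replicates 1 and 2 stood apart from EtOH replicates 3 and 4, with summed endothelial markers of 746 and 741 CPM against 366 and 405 CPM, and summed skeletal muscle markers of 5.50 and 4.67 CPM against 49.6 and 56.7 CPM. Calcipotriol replicate 1 stood apart from its group in summed macrophage markers, at 2834 CPM against 1540 to 1983 CPM.

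A gene was called when the Benjamini-Hochberg adjusted p of edgeR's quasi-likelihood test over all 14458 genes tested was under 0.05 and its log2 fold change (calcipotriol minus EtOH) was at least 1 in size. By this rule Rgs5 fell in calcipotriol-treated tumors, and it was the only one of the 10 genes that was called, whereas 2.02% of all genes tested were called in either direction and 0.948% were called lower. No member was called higher by edgeR, by DESeq2 or by limma-voom, and 0 members were higher at an unadjusted p under 0.05, against 3 lower (Cspg4, Rgs5 and Abcc9). Of all genes tested, 1.07% were called higher, and 18.4% had an unadjusted p under 0.05 in either direction. With the adjusted p alone and no fold change minimum, Rgs5 was again the 1 member that passed, as did 2.74% of all genes. The median log2 fold change of the 10 genes was -0.41, with 3 positive and 7 negative values, and that of all genes tested was 0.02. In 2 members, Cspg4 and Rgs5, the groups did not overlap, with calcipotriol below EtOH. Over all genes tested the groups did not overlap in 12.5%, namely 6.32% with calcipotriol higher and 6.16% with calcipotriol lower. In bulk tumor RNA, fewer cells of a type and less RNA per cell cannot be told apart.

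**Figure D1:**
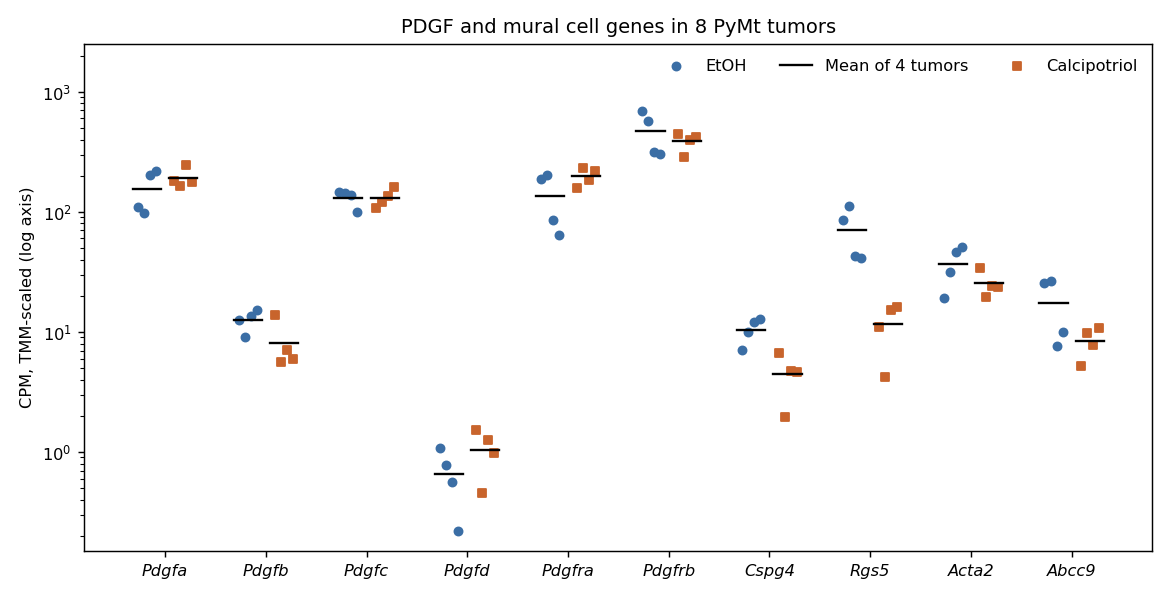
CPM of each member (log axis) in every tumor, with EtOH-treated tumors as circles, calcipotriol-treated tumors as squares, both drawn from left to right in the order of replicate number, and the mean of 4 tumors as a bar. The levels run from 0.221 CPM for Pdgfd in EtOH replicate 4 to 693 CPM for Pdgfrb in EtOH replicate 1, and Rgs5 and Cspg4 are the genes whose groups do not overlap.

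Per kilobase of merged exon, the scale on which genes can be compared with one another, Pdgfrb was the most abundant member in EtOH-treated tumors at 85.8 ± 35.2 CPM per kilobase (SD, n = 4). Pdgfa followed at 50.1 ± 19.8 and Pdgfc at 25.8 ± 4.12, and the tumor ranges of Pdgfrb and Pdgfa overlapped while those of Pdgfa and Pdgfc did not. Acta2, Rgs5 and Pdgfra formed the middle of the order, at means of 16.8, 15.5 and 13.5 with overlapping ranges. Pdgfb (3.02), Abcc9 (2.09), Cspg4 (0.877) and Pdgfd (0.209) came last, with a gap between Pdgfra and Pdgfb and another between Cspg4 and Pdgfd.

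In calcipotriol-treated tumors the first 3 genes kept their places, at means of 70.7 for Pdgfrb, 61.5 for Pdgfa and 25.8 for Pdgfc, in CPM per kilobase. Pdgfra came next at 19.7, Acta2 at 11.6 and Rgs5 at 2.56, the last of which overlapped in range with Pdgfb at 1.95. Among the 14429 genes with a length, the level of Rgs5 stood at the 79th percentile with EtOH and at percentile 37.1 with calcipotriol, the largest move of any member. With the length of the longest transcript in place of merged exons, Pdgfa (93.1) stood above Pdgfrb (71.4) in calcipotriol-treated tumors, so their order depends on the length used.

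Among the ligands, Pdgfa and Pdgfc made up nearly all of the RNA, Pdgfb was at a low level and Pdgfd close to the floor, and no ligand passed the test. As a share of the summed ligand level per kilobase, Pdgfa took 61.4% ± 11.9 (SD, n = 4) with EtOH and 68.4% ± 4.22 with calcipotriol, Pdgfc 34.4% and 29.0%, Pdgfb 3.85% and 2.22%, and Pdgfd 0.293% and 0.369%.

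Pdgfa (ENSMUSG00000025856; GRCm38, reverse strand of chromosome 5, 138976014 to 138997370) encodes the A chain, the ligand of PDGFRα. It was at 109, 97.4, 202 and 217 CPM in EtOH replicates 1 to 4 and at 181, 164, 245 and 178 CPM in calcipotriol replicates 1, 5, 6 and 7. EtOH replicates 1 and 2 were the low tumors, and EtOH replicates 3 and 4 lay within the range of the calcipotriol-treated tumors. The log2 fold change was 0.29 (SE 0.26, 95% interval -0.29 to 0.88, edgeR adjusted p = 0.599), and its sign and size depended on the EtOH-treated tumors used. It was -0.12 (edgeR adjusted p = 0.759) without EtOH replicates 1 and 2 and 0.89 (0.0341) without EtOH replicates 3 and 4, the latter past the adjusted p but short of the fold change minimum. Leaving out EtOH replicates 3 and 4 removes the overlap between the groups, so the p of that fit is not a test of the treatment. Exons of Pdgfa overlap 6330403L08Rik on the opposite strand, which had 280 to 810 counts in these tumors, and since the strand setting of the counting is not given in the sources used here, reads of this pair may be assigned to either.

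Pdgfb (ENSMUSG00000000489; reverse strand of chromosome 15, 79995874 to 80014977) encodes the B chain, the ligand through which endothelium recruits pericytes. With EtOH the tumors had 12.5, 9.15, 13.5 and 15.1 CPM, and with calcipotriol 13.7, 5.62, 7.11 and 5.98 CPM. Calcipotriol replicate 1 lay among the EtOH-treated tumors, and the other 3 calcipotriol-treated tumors lay below all of them. Over all 8 tumors the log2 fold change was -0.63 (SE 0.31, 95% interval -1.32 to 0.05, edgeR adjusted p = 0.311). Without calcipotriol replicate 1 it was -1.01 with an edgeR adjusted p of 0.0352, so 1 tumor decided whether Pdgfb was called. Leaving out that tumor removes the overlap between the groups, so the p of that fit is not a test of the treatment. Without EtOH replicates 1 and 2 it was -0.82 (edgeR adjusted p = 0.259), and without EtOH replicates 3 and 4 it was -0.42 (0.567). Calcipotriol replicate 1 was also the highest of its group in summed macrophage markers, but its sum (2834 CPM) was below those of the EtOH-treated tumors (3650 to 4879 CPM). Among the rest of its group the orders differed, with replicate 5 lowest in Pdgfb and highest in the sum (1983 CPM). The part of macrophages in the level of Pdgfb was not tested.

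Pdgfc (ENSMUSG00000028019; forward strand of chromosome 3, 81036416 to 81214040) and Pdgfd (ENSMUSG00000032006; forward strand of chromosome 9, 6168584 to 6378850) encode ligands that are secreted in a latent form and become active once proteases remove their CUB domain. Pdgfc was at 145, 143, 138 and 100.4 CPM with EtOH and at 107, 122, 137 and 161 CPM with calcipotriol, with the group means at 131.5 and 131.4 CPM. Its log2 fold change was 0.00 (SE 0.16, 95% interval -0.36 to 0.36, edgeR adjusted p = 0.999), the narrowest interval among the 10 genes. Pdgfd had few counts, 22, 16, 14 and 5 in the EtOH-treated and 38, 10, 26 and 23 in the calcipotriol-treated tumors. At this depth the log2 fold change of Pdgfd, 0.67, had a 95% interval from -0.84 to 2.18 (edgeR adjusted p = 0.658), so no difference was detectable. Without EtOH replicates 1 and 2 the log2 fold changes of Pdgfc and Pdgfd were 0.14 and 1.40 (edgeR adjusted p = 0.733 and 0.431), and without EtOH replicates 3 and 4 they were -0.13 and 0.18 (0.698 and 0.919).

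Of the receptors, Pdgfrb was the more abundant in every tumor, and neither receptor was called, although their ratio was lower with calcipotriol in 3 of 4 tumors than in any EtOH-treated tumor. Pdgfra (ENSMUSG00000029231; forward strand of chromosome 5, 75152292 to 75198215) encodes PDGFRα, which is found on fibroblasts and other mesenchymal cells. It was at 187, 203, 86.3 and 63.8 CPM with EtOH and at 158, 231, 183 and 217 CPM with calcipotriol. EtOH replicates 3 and 4 were the low tumors, below every calcipotriol-treated tumor, while EtOH replicates 1 and 2 lay inside the range of the calcipotriol-treated tumors. The log2 fold change was 0.55 (SE 0.33, 95% interval -0.19 to 1.28, edgeR adjusted p = 0.416). It was 1.40 (edgeR adjusted p = 0.0245) without EtOH replicates 1 and 2 and 0.02 (0.967) without EtOH replicates 3 and 4. The value for Pdgfra thus depended on which of the EtOH-treated tumors it was compared with. Leaving out EtOH replicates 1 and 2 removes the overlap between the groups, so the p of that fit is not a test of the treatment.

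Pdgfrb (ENSMUSG00000024620; forward strand of chromosome 18, 61045150 to 61085061) encodes PDGFRβ, the receptor through which pericytes respond to PDGF-B. Its values were 693, 569, 316 and 302 CPM in the EtOH-treated tumors and 446, 285, 399 and 419 CPM in the calcipotriol-treated tumors. EtOH replicates 1 and 2 were the highest of all 8, and the other tumors of both groups overlapped. Its log2 fold change was -0.28 (SE 0.27, 95% interval -0.88 to 0.32, edgeR adjusted p = 0.637), and it was 0.33 (adjusted p = 0.384) without EtOH replicates 1 and 2 and -0.70 (0.084) without EtOH replicates 3 and 4. Pdgfrb made up 86.9% ± 2.44 (SD, n = 4) of the summed receptor level per kilobase with EtOH and 77.7% ± 6.15 with calcipotriol.

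**Figure D2:**
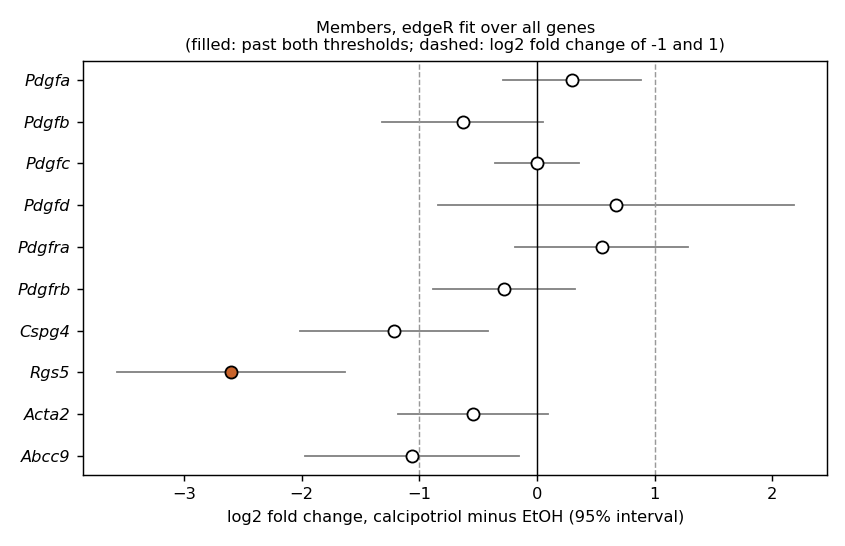
Log2 fold change (calcipotriol minus EtOH) of each member from edgeR's fit over all genes, with its 95% interval as a bar, dashed lines at -1 and 1, and the called gene filled. Rgs5 at -2.60 is the only filled point, the intervals of Cspg4 and Abcc9 also lie below 0, and those of the other 7 genes span 0.

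Over the 8 tumors the mural markers had negative log2 fold changes, although that of Acta2 was 0.00 without EtOH replicates 3 and 4. Rgs5 was the one that was called, and its log2 fold change was the lowest. Rgs5 (ENSMUSG00000026678; forward strand of chromosome 1, 169655501 to 169695813) encodes a regulator of G protein signaling that shortens signals from G protein-coupled receptors and marks pericytes. Its level was 86.1, 111, 43.1 and 41.6 CPM with EtOH and 11.0, 4.25, 15.2 and 16.1 CPM with calcipotriol, from 944 to 2284 counts and from 93 to 379 counts per tumor. Every calcipotriol-treated tumor was below every EtOH-treated tumor, and the gap between the groups held although EtOH replicates 1 and 2 were well above EtOH replicates 3 and 4.

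The mean of Rgs5 was 70.5 ± 34.1 CPM with EtOH and 11.6 ± 5.39 CPM with calcipotriol (SD, n = 4), a 6.06-fold lower level. Its log2 fold change was -2.60 (SE 0.44, 95% interval -3.57 to -1.63, edgeR adjusted p = 0.0162), and Rgs5 ranked 106 by p among the 14458 genes tested. In the 8 fits that omit a tumor each, the value stayed between -2.79 and -2.29 and Rgs5 was called each time. Without EtOH replicates 1 and 2 it was -1.86 and the call was lost (edgeR adjusted p = 0.0665), while without EtOH replicates 3 and 4 it was -3.08 (0.00647). An exact two-sided permutation test on log2 CPM (70 arrangements) gave p = 0.0286 for Rgs5, the smallest that 4 against 4 allows, or 0.143 after adjustment over the 10 members tested in this way.

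Cspg4 (ENSMUSG00000032911; forward strand of chromosome 9, 56865033 to 56899870) encodes the proteoglycan NG2, a surface marker of pericytes and of some tumor cells. It was at 7.10, 9.93, 11.99 and 12.8 CPM with EtOH and at 6.64, 1.96, 4.76 and 4.62 CPM with calcipotriol. The groups did not overlap, but calcipotriol replicate 1 and EtOH replicate 1 lay close together. The log2 fold change was -1.22 (SE 0.36, 95% interval -2.01 to -0.42), and Cspg4 did not pass the threshold (edgeR adjusted p = 0.104). DESeq2 gave an adjusted p of 0.0221 for Cspg4, limma-voom 0.0826, and edgeR without calcipotriol replicate 1 gave 0.0424 at a log2 fold change of -1.47. Without EtOH replicates 1 and 2 the edgeR values were -1.46 (adjusted p = 0.105), and without EtOH replicates 3 and 4 they were -0.92 (adjusted p = 0.258). The exact permutation test gave p = 0.0286 for Cspg4 as well (0.143 after adjustment over 10).

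Abcc9 (ENSMUSG00000030249; reverse strand of chromosome 6, 142587862 to 142702315) encodes SUR2, the regulatory subunit of an ATP-sensitive potassium channel of pericytes and smooth muscle. EtOH replicates 1 and 2 were at 25.8 and 26.6 CPM and EtOH replicates 3 and 4 at 7.70 and 10.01 CPM, against 5.24, 9.82, 7.74 and 10.8 CPM with calcipotriol. Only EtOH replicates 1 and 2 were thus above the calcipotriol-treated tumors, and the remaining tumors overlapped. For Abcc9 the log2 fold change was -1.06 (SE 0.41, 95% interval -1.97 to -0.15, edgeR adjusted p = 0.207). It was -0.08 (adjusted p = 0.928) without EtOH replicates 1 and 2 and -1.64 (adjusted p = 0.0146) without EtOH replicates 3 and 4. Leaving out EtOH replicates 3 and 4 removes the overlap between the groups, so the p of that fit is not a test of the treatment.

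Acta2 (ENSMUSG00000035783; reverse strand of chromosome 19, 34241090 to 34255590) encodes α smooth muscle actin, a contractile protein of smooth muscle, of many pericytes and of myofibroblasts. It was at 19.2, 31.8, 45.9 and 50.9 CPM with EtOH and at 34.0, 19.5, 24.3 and 23.9 CPM with calcipotriol. EtOH replicate 1 was the lowest of all 8 tumors, and EtOH replicates 3 and 4 were the highest. That gave a log2 fold change of -0.54 (SE 0.29, 95% interval -1.18 to 0.09, edgeR adjusted p = 0.346). This value rested on EtOH replicates 3 and 4, without which it was 0.00 (edgeR adjusted p = 0.996), and it was -0.93 (0.0721) without EtOH replicates 1 and 2. Across the EtOH-treated tumors the mural markers did not share an order, since Rgs5 and Abcc9 were higher in replicates 1 and 2 and Cspg4 and Acta2 were higher in replicates 3 and 4.

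**Figure D3:**
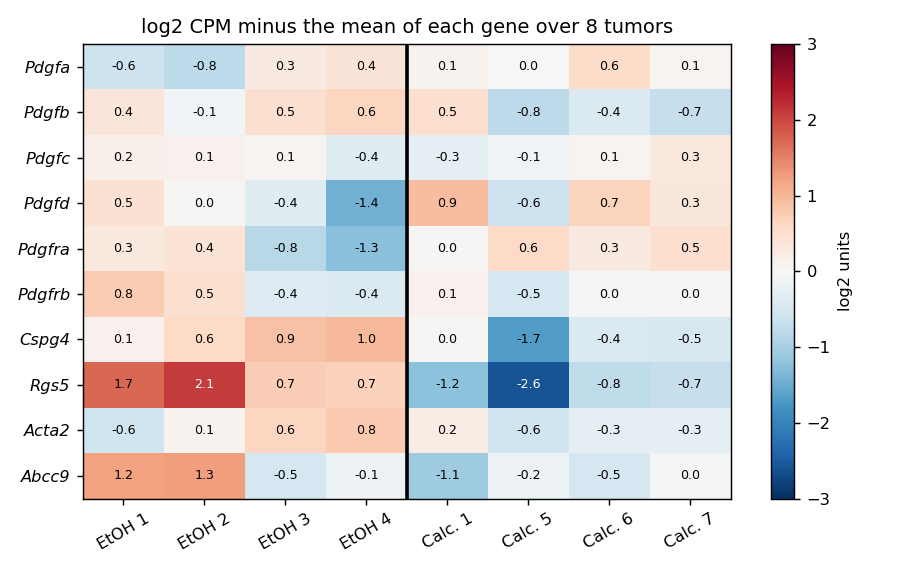
Log2 CPM of each member minus its own mean over the 8 tumors (color scale in log2 units, value printed in each cell), with tumors in columns and a line between the groups. Rgs5 is above its mean in all 4 EtOH-treated tumors and below it in all 4 calcipotriol-treated tumors. Pdgfra, Pdgfrb and Abcc9 are above their means in EtOH replicates 1 and 2 and below them in EtOH replicates 3 and 4. Pdgfa divides these tumors in the opposite direction.

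The sequences just before the first annotated base of the 3 mural markers with the lowest log2 fold changes are given here. Of these genes only Rgs5 was called. They are from RefSeq promoter sequences (GRCm38.p6), which held an entry for 8 of the 10 genes, and are written in the direction of transcription, without the bases that the GENCODE M21 annotation places inside the gene. The Rgs5 sequence is chr1:169655251-169655500 (forward strand), that of Cspg4 is chr9:56864854-56865032 (forward strand) and that of Abcc9 is chr6:142702316-142702524 (reverse strand). In this order they are 250, 179 and 209 bases long, with last bases at -1, -72 and -42 from the RefSeq start. Motif positions below are counted from that start and not from the end of the printed stretch. Capitals mark a match to TATATA, which is a TATA box sequence, or to TGGGAA, which is the core of the site of the Notch effector RBPJ.
Rgs5: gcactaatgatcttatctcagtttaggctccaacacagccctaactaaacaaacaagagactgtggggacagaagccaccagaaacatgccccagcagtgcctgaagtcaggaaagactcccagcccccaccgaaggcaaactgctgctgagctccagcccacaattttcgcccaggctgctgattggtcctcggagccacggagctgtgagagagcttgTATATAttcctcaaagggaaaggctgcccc
Cspg4: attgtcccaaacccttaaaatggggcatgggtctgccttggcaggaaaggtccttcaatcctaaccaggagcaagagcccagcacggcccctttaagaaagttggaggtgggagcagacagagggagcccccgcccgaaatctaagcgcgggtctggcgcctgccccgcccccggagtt
Abcc9: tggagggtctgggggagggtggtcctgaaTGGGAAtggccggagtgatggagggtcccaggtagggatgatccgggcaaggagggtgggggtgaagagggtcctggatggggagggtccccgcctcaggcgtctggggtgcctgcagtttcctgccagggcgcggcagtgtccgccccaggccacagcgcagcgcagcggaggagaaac

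The 250 bases before each RefSeq start were searched on both strands for 5 motifs, namely the TATA box and RBPJ letters above, the CArG box of serum response factor, and a pair of repeat units of vitamin D receptor sites, of which the first is AGGTCA and the other one is written GGTTCA. A CArG box was counted in a relaxed form, CC and GG around a stretch of A and T in which 1 other base was allowed. Rgs5 held a TATATA whose first base is at position -30 from the start, a motif found in 5.25% of 32851 mouse promoters in a window of this length. Abcc9 held a TGGGAA at -221, a motif in 21.6% of promoters, and Cspg4 held none of the 5. Acta2 held CArG boxes at -84 and -34 (8.59% of promoters hold at least 1) and a TGGGAA at -27. Outside the mural markers, Pdgfc held a CArG box at -17, and TGGGAA was at -13 in 1 of the Pdgfa promoters and at -56 in Pdgfd. Neither AGGTCA (14% of promoters) nor GGTTCA (8.85%) was in the windows of the 4 mural markers, while 1 of the Pdgfa promoters held GGTTCA at -202. These matches describe letters in a window and were not tested as binding sites.

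Ratios of a pair of genes within a tumor do not depend on how libraries were scaled against each other, and 4 such ratios were compared by exact two-sided permutation of the tumors (70 arrangements) with adjustment over the 4. The log2 ratio of Rgs5 to Pdgfrb was -3.01, -2.35, -2.87 and -2.86 in EtOH-treated tumors and -5.34, -6.05, -4.71 and -4.70 in calcipotriol-treated tumors. The means were -2.77 ± 0.29 and -5.20 ± 0.64 (SD, n = 4), a difference of -2.43 (exact p = 0.0286, adjusted 0.0572), with no overlap between the groups. The unadjusted value is the smallest p that this test allows. EtOH replicates 1 and 2, whose values were the lowest and the highest of their group, did not stand apart together in this ratio.

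The ratio of Pdgfrb to Pecam1, an adhesion molecule of endothelial cells, went the other way. It was 3.26, 2.61, 3.06 and 2.97 on the log2 scale with EtOH and 4.04, 3.79, 4.10 and 4.17 with calcipotriol, again with no overlap. The difference was 1.05 (exact permutation p = 0.0286, adjusted 0.0572), and Pecam1 itself fell (60.6 ± 27.2 CPM with EtOH, 23.6 ± 2.71 CPM with calcipotriol, SD, n = 4; log2 fold change -1.36, edgeR adjusted p = 0.0331).

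The log2 ratio of Pdgfrb to Pdgfra was 1.89, 1.49, 1.87 and 2.24 with EtOH and 1.5, 0.30, 1.12 and 0.95 with calcipotriol, and calcipotriol replicate 1 overlapped with EtOH replicate 2. The means differed by -0.91 (exact permutation p = 0.0571, adjusted 0.0761). Without calcipotriol replicate 1, the only tumor of its group that overlapped, the difference was -1.08. That value is given without a test, since leaving out this tumor removes the overlap. For Pdgfb to Pdgfrb, ligand to receptor, the ratio was -5.15 ± 0.84 with EtOH and -5.65 ± 0.46 with calcipotriol (SD, n = 4), a difference of -0.50 (exact permutation p = 0.286, adjusted 0.286).

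**Figure D4:**
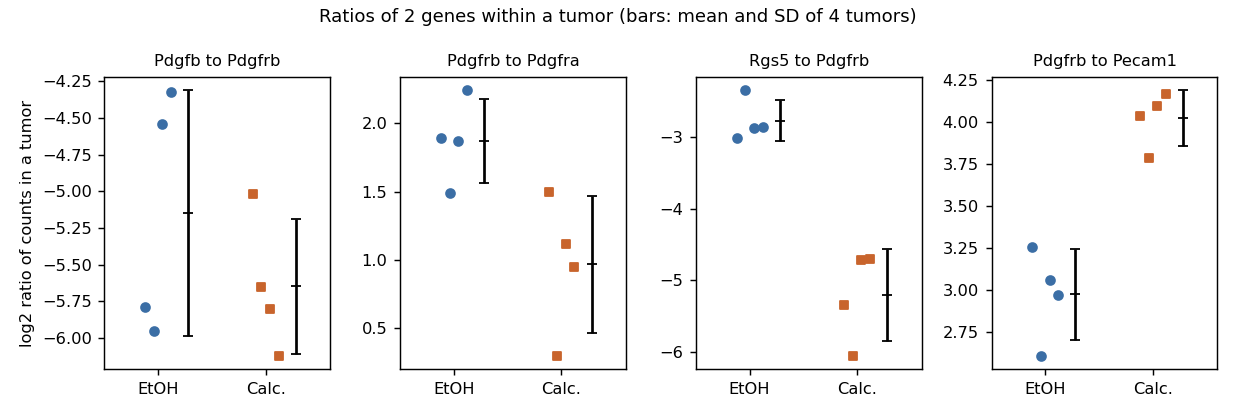
Log2 ratio of the counts of a pair of genes within each tumor, for 4 pairs, with EtOH-treated tumors as circles, calcipotriol-treated tumors as squares and bars for the mean and SD of 4 tumors; each panel has its own axis. The ratios of Rgs5 to Pdgfrb and of Pdgfrb to Pecam1 do not overlap between the groups and differ by -2.43 and 1.05.

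Counts for other genes of PDGF signaling, and for the lists that follow, stand beside the shares of all genes tested. Of these, 2.02% were called and 18.4% had an unadjusted p under 0.05 in edgeR's test, in either direction. Of 41 genes for the processing and binding of PDGF ligands and for signaling from the receptors, 1 was called higher and 0 lower by edgeR, with 2 higher and 8 lower at an unadjusted p under 0.05, and DESeq2 and limma-voom each called 1. Their median log2 fold change was -0.13. The called gene was Pdgfrl, a secreted protein that resembles the extracellular part of a PDGF receptor. It was at 9.39, 5.40, 6.36 and 7.06 CPM with EtOH and at 32.5, 36.8, 16.4 and 17.4 CPM with calcipotriol, with no overlap, and its log2 fold change was 1.87 (SE 0.30, edgeR adjusted p = 0.0137). The list had 1 gene called in every fit that omitted a single tumor and 0 without EtOH replicates 1 and 2.

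Immediate early genes are transcribed within minutes of growth factor signals, including those from PDGF receptors. Among 18 of them, 2 were called higher (Fosb and Fos) and 1 lower (Egr3), with a median log2 fold change of 0.29. At an unadjusted p under 0.05, 7 were higher and 1 was lower, and DESeq2 and limma-voom each called 4. Ccn2, a matricellular protein named here after its values were seen, passed the adjusted p (0.024 from edgeR) at a log2 fold change of 0.98, just short of the minimum. Fosb, a partner in the AP-1 transcription factor, was at 97.2 ± 21.8 CPM with EtOH and 242 ± 53.3 CPM with calcipotriol (SD, n = 4). Its log2 fold change was 1.31 (edgeR adjusted p = 0.0123), and that of Fos, another AP-1 component, was 1.15 (adjusted p = 0.0379). Egr3, a zinc finger transcription factor, was at 124, 105, 93.4 and 78.1 CPM with EtOH and 55.9, 40.9, 44.8 and 50.5 CPM with calcipotriol, a log2 fold change of -1.06 (edgeR adjusted p = 0.0111). Of this list 2 to 4 genes were called when a tumor other than calcipotriol replicate 5 was omitted, and 1 without that tumor.

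Pericyte markers beyond the 10 genes had mostly negative values, though few passed, and most of the negative values came from genes at low levels. Of 20 tested, 15 had a negative log2 fold change, the median was -0.88, and 1 was called, lower. This was Mcam (CD146, an adhesion molecule of pericytes and endothelium), at 65.6, 54.1, 38.4 and 40.8 CPM with EtOH and 21.5, 17.5, 23.9 and 17.4 CPM with calcipotriol, a log2 fold change of -1.31 (edgeR adjusted p = 0.0107). DESeq2 called 4 genes of this list, and edgeR called 2 without EtOH replicate 3 and 1 without any other single tumor. Des and Kcnj8, named here after their values were seen, are the intermediate filament desmin and the channel partner of Abcc9. Each had a log2 fold change of -2.0 without passing (adjusted p = 0.061 and 0.0945). Kcnj8 was highest in EtOH replicates 1 and 2, at 19.1 and 16.7 CPM. EtOH replicate 3, at 2.75 CPM, lay within the calcipotriol range of Kcnj8, 1.75 to 4.18 CPM. Low-level markers such as Higd1b and Gucy1b1, named after their values were seen, had EtOH means of 1.97 and 1.22 CPM. Of the markers with an EtOH mean of at least 5 CPM, Kcnj8, Des, Anpep and Mcam had negative log2 fold changes. Notch3, Foxs1, Angpt1 and Cd248, also at that level, had positive ones, so no shared direction was seen there. Positive log2 fold changes were found in 5 of the 20 markers. Among these, Angpt1 and Notch3, also named after their values were seen, were at 0.91 and 0.74 (adjusted p = 0.275 and 0.337). Cd248, a marker shared by pericytes and fibroblasts and also named after its values were seen, had the highest log2 fold change of the list at 1.85 (adjusted p = 0.143), with 120 CPM in calcipotriol replicate 1 against 12.8 to 24.7 CPM in the rest of its group.

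Of 12 contractile genes of vascular smooth muscle tested (Myocd and Pln had too few counts), 1 was called, lower, and the median log2 fold change was -0.66. It was Mylk, myosin light chain kinase, at 31.7 ± 6.09 CPM with EtOH and 11.7 ± 2.11 CPM with calcipotriol (SD, n = 4; log2 fold change -1.44, edgeR adjusted p = 0.00747). Of 10 genes of other signals that recruit mural cells, S1pr1, a receptor for sphingosine 1-phosphate, was the 1 called, lower (log2 fold change -1.30, adjusted p = 0.0186), and the list's median was -0.33. Among 18 fibroblast markers tested, cells that also carry the PDGF receptors, 1 was called lower (Fbln1, a matrix glycoprotein, log2 fold change -1.46, adjusted p = 0.0175) and the median was 0.05. Single tumors decided some of these counts: the S1pr1 list had 0 genes called without EtOH replicate 1, EtOH replicate 2, calcipotriol replicate 5 or calcipotriol replicate 6 and 2 without calcipotriol replicate 1, and the fibroblast list had 0 without EtOH replicate 1, EtOH replicate 2 or calcipotriol replicate 6 and 3 without calcipotriol replicate 1. Without EtOH replicates 3 and 4, the fit in which the value of Pdgfra was 0.02, 6 fibroblast markers were called, and without EtOH replicates 1 and 2 there were 0. The smooth muscle list had a count of 1 in each fit that omitted 1 tumor. The summed level of the fibroblast markers was 6477 to 7883 CPM with EtOH and 5136 to 8366 CPM with calcipotriol, and Tcf21 was at 0 counts in every tumor.

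**Figure D5:**
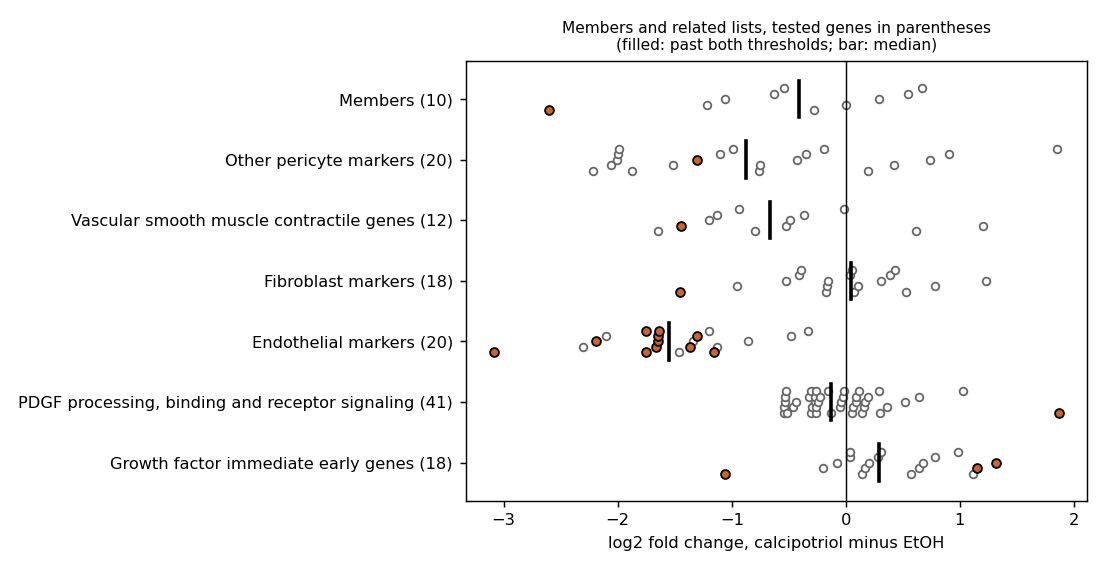
Log2 fold change (calcipotriol minus EtOH) of each tested gene of the members and of 6 related lists, with called genes filled, the median as a bar and the number tested in parentheses. Endothelial markers hold 11 filled points, all negative, while the other rows hold 1 to 3.

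Mural cells cover the endothelium of vessels. Of 20 endothelial markers tested, 11 were called, all lower, and the median log2 fold change was -1.55. Kdr (a receptor of VEGF), Robo4, Esam, Mmrn2, Vwf and Sox18 had the smallest p, with log2 fold changes from -2.19 for Robo4 to -1.31 for Esam. The count was 5 without EtOH replicate 1, 4 without EtOH replicate 2 and 2 to 4 without calcipotriol replicate 5, 6 or 7, and DESeq2 and limma-voom called 16 and 7. Without EtOH replicates 1 and 2 it was 2, as it also was for the other pericyte markers and for the smooth muscle genes, and without EtOH replicates 3 and 4 it was 17, against 3 and 1. The summed level was 366 to 746 CPM with EtOH and 154 to 339 CPM with calcipotriol, with no overlap, in the same tumors in which Rgs5 was lower. The part of endothelial RNA in the result for Rgs5 was not tested, and without EtOH replicates 1 and 2, the tumors with the highest endothelial sums, the log2 fold change of Rgs5 was -1.86, as given above.

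Markers of other cells moved between the groups or between tumors too, and their part in the members' values was not tested. Of 12 macrophage markers, 3 were called lower (Lyz2 at -1.75, Adgre1 at -1.24 and Csf1r at -1.64 on the log2 scale) and 1 higher (Cd163 at 1.87), with summed levels of 3650 to 4879 CPM with EtOH and 1540 to 2834 CPM with calcipotriol. Without calcipotriol replicate 1, 10 macrophage markers were called, without EtOH replicate 3 or 4 there were 2, and without any other single tumor 1. Of 7 erythroid genes tested, 5 were called lower (Alas2 and the globin genes, log2 fold changes of -3.03 to -2.74), with sums of 3460 to 5838 and 436 to 821 CPM, where reads may be split between the near-identical copies Hba-a1 and Hba-a2 and between Hbb-bs and Hbb-bt. Of 4 basal and myoepithelial markers tested, Krt14 (log2 fold change 5.17) and Trp63 (2.57) were called higher. Krt17 (3.13) was not called, and Krt5 went the other way (-0.27, means of 1.33 CPM with EtOH and 1.11 CPM with calcipotriol). Oxtr, too low to be tested, had means of 0.357 and 0.161 CPM. The summed levels were 1.17 to 5.43 CPM with EtOH and 5.28 to 58.2 CPM with calcipotriol, where Krt14 alone was at 1.59 to 46.3 CPM. Acta2, which myoepithelial cells also express, had a log2 fold change of -0.54. The basal calls rested on single tumors, with 0 called without EtOH replicate 1, 2 or 3 or calcipotriol replicate 5, 6 or 7, 1 without EtOH replicate 4, and 0 by limma-voom.

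Lists in which edgeR called 0 genes were those of platelets, epithelial tumor cells, skeletal muscle, Schwann and oligodendrocyte cells and adipocytes. Platelets are a source of PDGF, and of 6 platelet markers tested 1 was higher at an unadjusted p under 0.05. Pf4 and Itgb3, the most abundant of them, were at 30.4 and 11.6 CPM with EtOH and 30.1 and 13.2 CPM with calcipotriol, and Gp6 was at 0 counts in every tumor. Among 5 epithelial markers 2 were lower at that p, Krt8 (log2 fold change -0.69) and Krt18 (-0.93). Krt18 also passed the adjusted p (0.0162 from edgeR) and missed the call on fold change, and 1 epithelial gene was called without EtOH replicate 3 or without calcipotriol replicate 1. Without EtOH replicates 3 and 4, edgeR called 2 epithelial, 1 platelet and 1 adipocyte gene.

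Of 8 skeletal muscle markers 3 (Acta1, Myh1 and Actn3) were lower at an unadjusted p under 0.05. Acta1 and Ckm, the most abundant of the 8, were at 8.17 and 4.94 CPM with EtOH and 0.886 and 0.518 CPM with calcipotriol. The EtOH means rested on replicates 3 and 4. In EtOH replicates 1 to 4 Acta1 was at 0.584, 0.925, 16.0 and 15.2 CPM and Ckm at 0, 0, 9.03 and 10.7 CPM. With calcipotriol they ranged from 0 to 1.78 and from 0 to 1.02 CPM. The Schwann and oligodendrocyte list, cells that also use Cspg4 or Pdgfra, had 3 genes tested and 0 under that p. S100b was at 126 and 92.2 CPM and Mbp at 6.25 and 3.29 CPM, while Olig1 and Olig2 were at 0 counts in every tumor. The 4 adipocyte markers tested had 0 genes under that p, with Cfd at 10.1 and 8.42 CPM and Retn at 1.40 and 0.952 CPM with EtOH and calcipotriol. These EtOH means also rested on replicates 3 and 4, since in EtOH replicates 1 and 2 Cfd was at 0.195 and 0 CPM and Retn at 0 CPM. DESeq2 called 1 skeletal muscle gene and 0 genes in the other 4 of these lists, and limma-voom called 0 in all 5.

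By likeness of profile over the 8 tumors (root mean square difference of log2 CPM centered on each gene, among 10714 genes of at least 5 CPM), the genes most like Pdgfrb were Lamb2 (0.116), Lrp1 (0.126), Zfyve1 (0.128), Plbd2 (0.132) and Maml2 (0.137). Lrp1, a large endocytic receptor on the list of PDGF signaling genes, was at 2990, 2550, 1760 and 1570 CPM with EtOH and 2210, 1480, 1740 and 2070 CPM with calcipotriol, so EtOH replicates 1 and 2 were its highest tumors as they were for Pdgfrb. Those most like Pdgfb were C1qa (0.134), Dhrs3 (0.142), Sigirr (0.159), Ctsz (0.161) and Cyba (0.168). C1qa, a complement gene of macrophages, was at 566, 447, 636 and 769 CPM with EtOH and 564, 300.0, 346 and 240.0 CPM with calcipotriol, and as for Pdgfb calcipotriol replicate 1 lay within the range of the EtOH-treated tumors. None of these 10 genes was called.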

How the data were processed

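Bulk RNA-Seq was analyzed from 4 EtOH-treated and 4 calcipotriol-treated mouse tumors, grouped by their labels. The authors deposited expected counts per gene (estimated counts, not whole in 4.2% to 6.22% of the values of a tumor), without scaling between tumors. The submitters' processing notes name STAR 2.5.3, RSEM 1.3.1, DESeq2 1.24.0 and GRCm38. The labels name a NovaSeq6000 sequencer and the study's methods a HiSeq model. Columns of other samples in the table numbered 0.

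The deposited values were rounded to whole counts, as planned for estimated counts. Identifiers were matched to GENCODE M21 (52081 of 55414), and those without a symbol, which took 0.313% to 1.99% of the counts, stayed in the tests. In R 4.3.3, edgeR 4.0.16 was used with filterByExpr, TMM, glmQLFit and glmQLFTest, with Benjamini-Hochberg adjustment over 14458 genes (biological coefficient of variation 0.347). SE was the log2 fold change divided by the square root of F, and 95% intervals used the t distribution of the fit. Log2 CPM had a prior count of 2, and ratios had 1 count added to each gene. The study calls the tumors biological replicates, and the labels do not name the animals.

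Named with values were the 10 members, Pecam1, from each list every called gene or, beyond 6, the 6 of smallest p, or with 0 called the 2 of highest mean CPM, and the 5 genes most like Pdgfrb and Pdgfb. The members and lists were chosen with earlier results of these data known. Alternatives were limma-voom (limma 3.58.1), DESeq2 1.42.0 as the test, its size factors alone, all genes kept regardless of counts, at least 10 counts required in each tumor, erythroid genes removed before normalization, adjusted p alone, each tumor left out and, added after the data were seen, EtOH replicates 1 and 2, or 3 and 4, left out.

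The fits were tested on simulated data of 14270 genes, 200 of which differed by 2 on the log2 scale. edgeR recovered 193 with 11 false calls, limma-voom 191 with 14 and DESeq2 191 with 38.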

Additional observations from a re-analysis of the deposited data

Results flagged for a closer look

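Of the 20 groups examined (10 members in each treatment), 1 held a tumor far from the others by Dixon's test on log2 CPM at the 5% level, and chance gives about 1 in 20. This was Pdgfc in EtOH replicate 4, at 100 CPM against 138 to 145 CPM in the other EtOH-treated tumors. On the log2 scale its gap to the nearest tumor was 0.852 of the range of the group.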

How the results depend on the processing

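No paired analysis was run, because the labels do not pair tumors of the groups. Rgs5 had a negative log2 fold change in all 17 alternatives, from -3.08 to -1.86, and was called in 16. The number of members called was 1, all lower. It was 2 with the DESeq2 test (2 lower, Cspg4 added at -1.21, adjusted p = 0.0221) and 1 to 3 over the fits that left out 1 tumor (1 to 3 lower). Calcipotriol replicate 1 alone decided that range: without it 3 were called (Pdgfb at -1.01 and Cspg4 at -1.47 added). Over these fits Pdgfb ranged from -1.01 to -0.49, Cspg4 from -1.47 to -0.97, Pdgfc from -0.11 to 0.09 and the Pdgfrb to Pdgfra ratio from -1.08 to -0.68. Pdgfc, at 0.00, changed sign with DESeq2's size factors (0.00), the DESeq2 test (0.00), no filter (0.01) and the minimum of 10 counts (0.01). Without EtOH replicates 1 and 2, 1 member was called higher (Pdgfra, 1.40), 0 lower by edgeR (Rgs5 -1.86, adjusted p = 0.0665), and Pdgfa (-0.12), Pdgfc (0.14) and Pdgfrb (0.33) changed sign. Without EtOH replicates 3 and 4, 2 were called, both lower (Abcc9 at -1.64 added). The cause of this dependence on the EtOH-treated tumors was not tested. The added calls of Pdgfra, Abcc9 and Pdgfb came in fits that left out the tumors that overlapped, so they are not tests of the treatment. Of the genes of the other lists, 30 were called, 14 to 44 with 1 tumor left out (16 without EtOH replicate 1 or 2, 14 to 15 without calcipotriol replicate 5, 6 or 7), 16 without EtOH replicates 1 and 2 and 46 without EtOH replicates 3 and 4. Over all genes, 292 were called, against 640 with DESeq2, 274 with limma-voom, 458 without the filter, 110 to 642 with 1 tumor left out (642 without calcipotriol replicate 1, 110 without calcipotriol replicate 6), 177 without EtOH replicates 1 and 2 and 605 without EtOH replicates 3 and 4. Without the filter the median of all genes was 0.12 on the log2 scale, from 0.02. Depth limits Pdgfd, which had 5 to 38 counts per tumor.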
